A study of Mus musculus with 8 samples.

Results

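The genes described are 10 members of the mouse carbonic anhydrase family, Car1, Car2, Car3, Car4, Car8, Car9, Car11, Car12, Car13 and Car14, taken by name from the 43346 gene identifiers that were counted. The files hold 6 further carbonic anhydrase genes, so the members are 10 of 16. RNA was sequenced from notochord-derived cells (NDCs) of Shh-cre;ROSA:YFP mice, in which Cre driven from the Shh locus switches on YFP in Shh-expressing cells and their descendants. Both stages carried these alleles and no other treatment was labelled. At embryonic day (E) 12.5 whole notochords were dissected into TRIzol without sorting, and at postnatal day (P) 0 nucleus pulposus (NP) cells were dissociated mechanically and sorted for YFP. Each of the 4 samples per stage pooled the animals of 1 litter, and stage and isolation method cannot be told apart.

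Carbonic anhydrases are zinc enzymes that interconvert carbon dioxide and water with bicarbonate and a proton. Cytosolic forms supply protons and bicarbonate to transporters inside the cell, and membrane-bound forms work on the outer cell surface, where they buffer the space around cells that release lactate and acid. The NP is an avascular tissue that relies on glycolysis, and CA12 and CA3 are among the genes used as markers of its cells. A further group, the carbonic anhydrase-related proteins, lacks the zinc-binding residues and is not active as an enzyme.

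Each E12.5 litter gave 4442775 to 7180221 reads on genes and each P0 litter 6371842 to 8904050. Levels are in CPM, the counts of a gene scaled to the size of its library. A floor of 3 counts was used, which came to 0.353 to 0.738 CPM and covers counting error only. The E12.5 litters NDP10.2 and NPD9.2 had the fewest reads on genes and the highest levels of Hbb-y, an embryonic globin, with 13588 and 27367 CPM against 5855 and 6396 in NPD3 and NPD4. Of the markers of the cells studied, T (brachyury) had 242 to 942 CPM at E12.5 and 574 to 2323 at P0, Shh had 420 to 1348 and 0.157 to 11.8 CPM, and Noto was at or below 0.433 CPM in every litter. Values below follow the litters NDP10.2, NPD3, NPD4 and NPD9.2 at E12.5 and NPD26, NPD27, NPD28 and NPD30 at P0.

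Across the stages, 6 members rose from E12.5 to P0 (Car1, Car2, Car3, Car8, Car9 and Car13), 1 fell (Car14, narrowly), and Car11 did not pass the test. Car4 and Car12 had too few counts to enter it. The test was edgeR's quasi-likelihood F-test over 15467 genes with Benjamini-Hochberg adjustment, with calls made where the adjusted p was below 0.05. Of all genes tested 27.9% were called, 16.0% as higher and 12.0% as lower at P0. The median log2 fold change (P0 over E12.5) of the 8 members tested was 2.45, beside 0.04 over all genes tested. These figures describe only what passed the filter, which asked for about 1.54 CPM in 4 litters. Car1 and Car8 passed it through the P0 litters alone, with 0 E12.5 litters above that level, and Car9 with 1. Every P0 litter lay above every E12.5 litter for 5 members and below for 2 (Car12 and Car14), and the litters of the other 3 overlapped. Over all genes tested, a set that leaves out Car4 and Car12, such separation was found for 15.5% upward and 14.4% downward. When the E12.5 litters NDP10.2 and NPD9.2 were both left out, 3 members were called (Car1, Car8 and Car9).

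**Figure D1:**
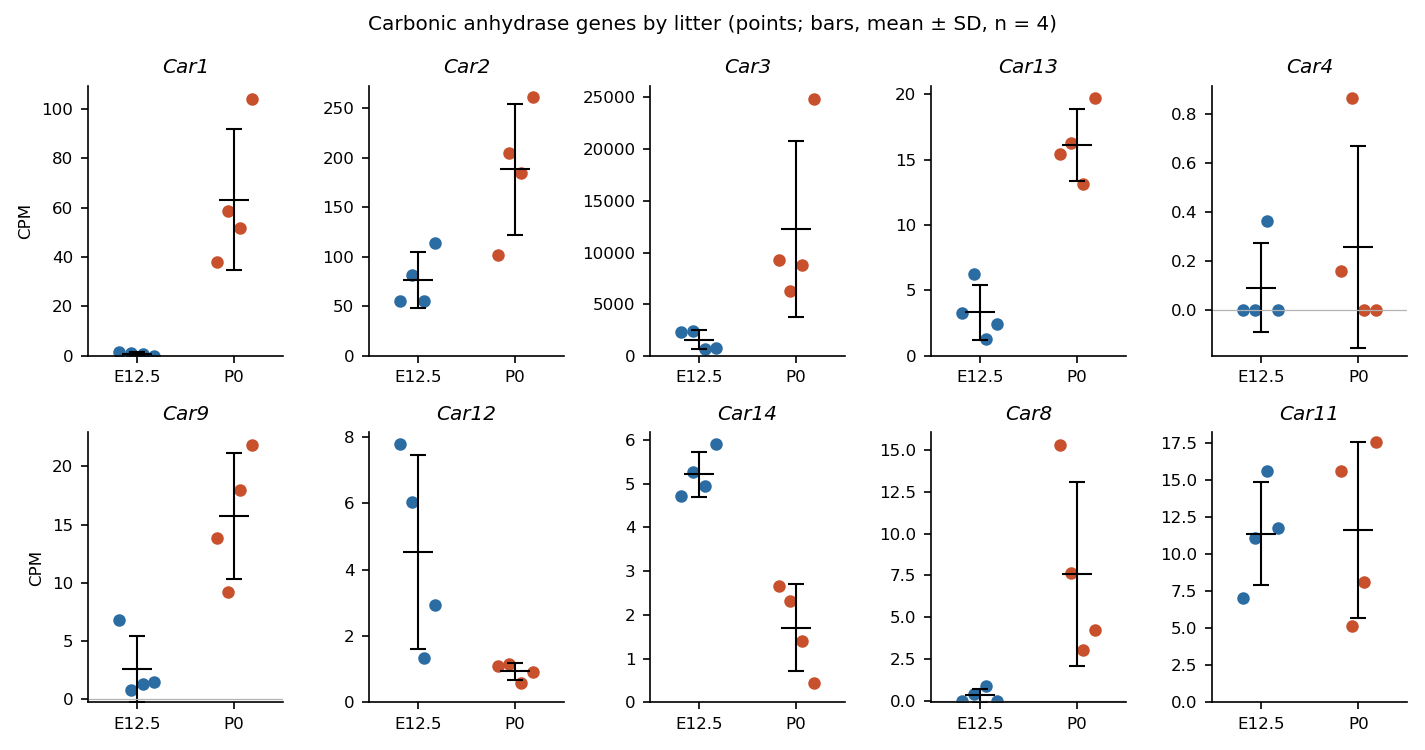
Level of each member in CPM (vertical axes, separate scale per panel) in the 4 E12.5 and 4 P0 litters, with points for litters and bars for mean ± SD (n = 4). The points of Car1, Car3, Car8, Car9 and Car13 lie higher in all P0 litters, those of Car12 and Car14 lie lower, and those of Car2, Car4 and Car11 overlap.

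**Figure D2:**
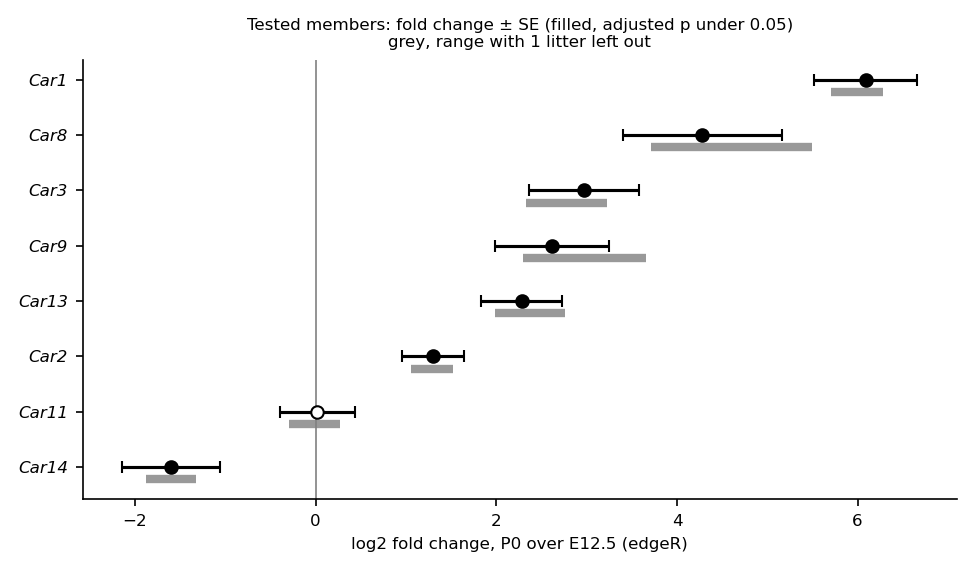
Log2 fold change (P0 over E12.5, horizontal axis) of the 8 tested members with its standard error, filled where edgeR's adjusted p was under 0.05. Grey bars give the range when 1 litter was left out, which runs from 5.70 to 6.28 for Car1 and lies on both sides of 0 for Car11.

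The 4 cytosolic members lie together on chromosome 3 (GRCm38) in the order Car13, Car1, Car3 and Car2, over 259 kb with no other protein-coding gene of Gencode M21 inside the span. Car13 is at chr3:14641727-14663002 on the plus strand, Car1 at chr3:14766216-14808368 on the minus strand, Car3 at chr3:14863512-14872523 and Car2 at chr3:14886273-14900770, both on the plus strand. All 4 rose, by very different amounts.

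Car3 encodes a cytosolic form with low carbon dioxide hydration activity, known from slow skeletal muscle, liver and fat. It was the most abundant member by far. Its level was 2359, 2418, 695 and 803 CPM in the E12.5 litters and 9235, 6250, 8798 and 24889 CPM in the P0 litters. The lowest P0 litter was above the highest E12.5 litter, and NPD30 stood well above the other P0 litters. The means were 1569 ± 948 and 12293 ± 8499 CPM (SD, n = 4), a log2 fold change of 2.97 ± 0.61 (SE, edgeR adjusted p = 0.00458). Without NPD30 the P0 mean was 8095 ± 1612 CPM (n = 3) and the log2 fold change 2.33 ± 0.50 (edgeR adjusted p = 0.00429). Car3 took 0.0735% to 0.244% of all reads counted on genes at E12.5 and 0.627% to 2.49% at P0. By count it ranked between place 18 and 55 among all genes in the E12.5 litters and between place 4 and 10 in the P0 litters.

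T, which marks notochord and NP cells, varied between litters much as Car3 did. It measured 942, 790, 242 and 362 CPM at E12.5 and 1007, 574, 1372 and 2323 CPM at P0, and its log2 fold change of 1.18 did not pass (edgeR adjusted p = 0.117). Both genes were lowest in NPD4 at E12.5, lowest in NPD27 at P0 and highest in NPD30. The ratio of Car3 to T, computed after both levels had been seen, was 2.50, 3.06, 2.88 and 2.22 at E12.5 and 9.17, 10.9, 6.41 and 10.7 at P0. The ratios did not overlap and spread less within a stage than Car3 itself. Car3 was set against T alone. Of the 8 notochord and NP markers 7 could be tested, of which 2 rose and 1 fell. Those that rose were Krt19 (log2 fold change 1.74, edgeR adjusted p = 0.0267) and Cd24a (1.33, 0.0224), and Shh fell (-7.14, 0.000742). Car3 and T were read from the same libraries, and in pooled tissue fewer cells of a type and less RNA per cell cannot be told apart. Of 8 skeletal muscle markers, 4 fell and 0 rose at P0, and their summed level was 147 to 784 CPM at E12.5 and 29.2 to 157 at P0. The muscle creatine kinase gene Ckm had 0 to 0.195 CPM at E12.5 and 0.589 to 1.26 at P0. No gene particular to slow muscle was among these markers. Of 6 adipocyte markers, 2 could be tested and both rose, and the summed level went from 0 to 1.97 CPM at E12.5 to 9.18 to 72.2 at P0, with 5 of the 6 at 0 in every E12.5 litter (Adipoq, Plin1, Cfd, Lep and Cidec). The adipocyte sum was highest in NPD27, the P0 litter with the least Car3. Most of that sum was Fabp4 (56.8 CPM), beside 13.6 CPM of Adipoq. The sum of 6 endothelial markers was also highest at P0 in NPD27 (123 CPM). The part of muscle cells or adipocytes in the Car3 result was not tested.

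Car1 encodes a cytosolic enzyme abundant in mature red blood cells and colon epithelium. It showed the largest log2 fold change of the members. The E12.5 litters held 6, 6, 8 and 0 counts (1.42, 1.17, 0.967 and 0 CPM), and the P0 litters 242, 406, 441 and 686 counts (38.1, 58.5, 51.9 and 104 CPM). Its transcript was thus near the floor in every E12.5 litter and plain in every P0 litter. Means were 0.888 ± 0.62 and 63.1 ± 28.6 CPM, and the log2 fold change was 6.09 ± 0.57 (edgeR adjusted p = 0.00012).

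Car2 encodes the highly active cytosolic form found in many cells, among them red blood cells and osteoclasts, which need it to acidify bone. Its level was 55.0, 81.8, 55.7 and 114 CPM at E12.5 and 102, 205, 185 and 262 CPM at P0. The E12.5 litter NPD9.2 was above the P0 litter NPD26, so the groups overlapped by 1 pair of litters. The means of 76.5 ± 27.7 and 189 ± 66.2 CPM differed by 1.30 ± 0.34 on the log2 scale (edgeR adjusted p = 0.0145), a call that was lost without NDP10.2 (adjusted p = 0.0541).

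Since red blood cells carry both Car1 and Car2, the erythroid markers are given beside them. Of 12 such markers measured, 1 rose and 6 fell, and their summed level was 10176 to 49478 CPM at E12.5 and 427 to 1308 at P0, the opposite direction to Car1 and Car2. The one that rose was Klf1, the erythroid transcription factor, with 6.84, 5.46, 5.44 and 16.7 CPM at E12.5 and 11, 23.2, 30.8 and 26.8 CPM at P0 (log2 fold change 1.43 ± 0.45, edgeR adjusted p = 0.0354). This call was lost whenever 1 litter other than NPD9.2 or NPD26 was left out (adjusted p from 0.0621 to 0.105). Per unit of Klf1, Car1 was 0.207, 0.214, 0.178 and 0 at E12.5 and 3.46, 2.52, 1.68 and 3.88 at P0, still without overlap. Car2 per unit of Klf1 ran from 6.79 to 15 at E12.5 and from 6.01 to 9.76 at P0, which overlap. NPD9.2 was the highest E12.5 litter and NPD26 the lowest P0 litter in both Klf1 and Car2. The part of red blood cells in either result was not tested.

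Osteoclast markers moved with stage as well. Of 8 markers, 3 could be tested and all 3 rose, with a summed level of 19.0 to 32.5 CPM at E12.5 and 215 to 1216 at P0, and Dcstamp, needed for osteoclast fusion, was at 0 in every E12.5 litter. The litter with the most Car2, NPD30, had the lowest osteoclast sum of the P0 litters (215 CPM) and 0 counts of Dcstamp. Single markers differed in this. Acp5 and Mmp9 were lowest in NPD30 (19.6 and 90.5 CPM), but Ctsk was lowest in NPD28 (76.3 CPM, against 103 in NPD30). Mmp9 was highest in NPD28 (1059 CPM), as was the sum of 8 neutrophil markers (6678 CPM). The part of osteoclasts in the Car2 result was not tested.

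Car13 encodes a further cytosolic enzyme with a wide tissue range. It measured 3.30, 6.24, 1.33 and 2.46 CPM at E12.5 and 15.4, 16.3, 13.1 and 19.7 CPM at P0. The P0 litters lay close together and clear of every E12.5 litter. The means were 3.33 ± 2.10 and 16.1 ± 2.75 CPM, with a log2 fold change of 2.28 ± 0.45 (edgeR adjusted p = 0.00397).

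**Figure D3:**
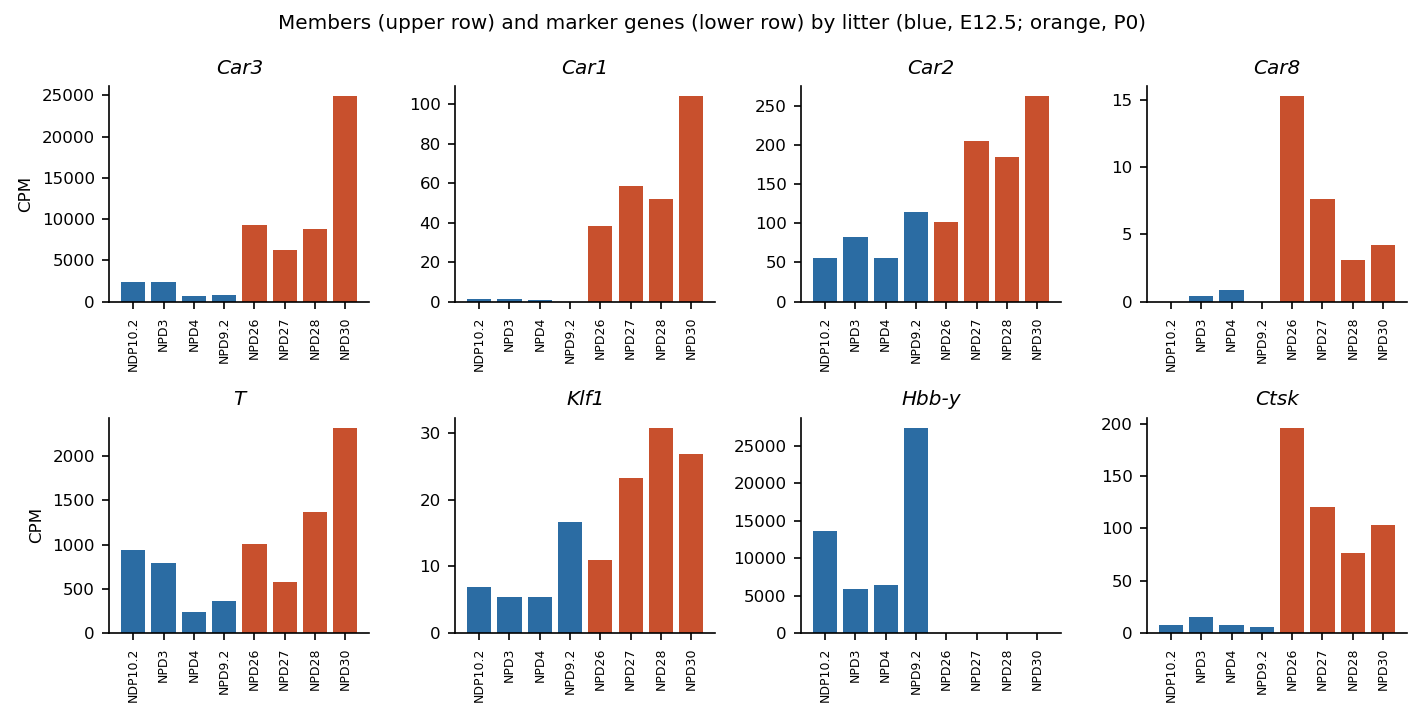
Level in CPM (vertical axes) of Car3, Car1, Car2 and Car8 in the upper row and of T, Klf1, Hbb-y and the osteoclast protease gene Ctsk in the lower row, 1 bar per litter (blue, E12.5; orange, P0). Car3 and T are both highest in NPD30, whereas Hbb-y falls from at least 5855 CPM in the E12.5 litters to at most 4.61 in the P0 litters.

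The membrane-bound members were far less abundant and split by direction. Car9, Car12 and Car14 encode transmembrane enzymes with the catalytic domain outside the cell, and Car4 encodes a form held by a lipid anchor, typical of capillary endothelium and kidney.

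Car9, a classical target of hypoxia-inducible factor (HIF), is at chr4:43506966-43513729 on the plus strand. It had 29, 4, 11 and 6 counts at E12.5 (6.84, 0.781, 1.33 and 1.48 CPM) and 88, 64, 153 and 144 counts at P0 (13.8, 9.23, 18 and 21.8 CPM). All P0 litters were higher than all E12.5 litters, and NDP10.2 stood apart as the E12.5 litter nearest to them. Means of 2.61 ± 2.84 and 15.7 ± 5.42 CPM corresponded to a log2 fold change of 2.62 ± 0.63 (edgeR adjusted p = 0.0101), or 3.66 without NDP10.2. In its exons, 214 of 2304 bases lie opposite the antisense gene Gm12454, and how the counting treated strand is not given in the sources used here.

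Car12 and Car14 were lower at P0. Car12, at chr9:66713686-66766845 on the plus strand, had 33, 31, 11 and 12 counts at E12.5 (7.78, 6.05, 1.33 and 2.95 CPM) and 7, 8, 5 and 6 counts at P0 (1.1, 1.15, 0.589 and 0.91 CPM). Every P0 litter was below every E12.5 litter, by little for NPD4. It was above the filter level in 3 litters, 1 too few. An exact two-sided permutation test of its CPM gave p = 0.0286, the smallest that 4 against 4 litters allow. With no filter its log2 fold change in edgeR was -2.24 ± 0.76 (adjusted p = 0.0273), and among the 8 fits that left out 1 litter, each of which tested it, the adjusted p ran from 0.0106 to 0.0648 and passed in 4. The fits in which it missed were those without NDP10.2, NPD3, NPD26 or NPD28.

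Car14, on the minus strand at chr3:95897768-95904691, had 4.72, 5.27, 4.96 and 5.90 CPM at E12.5 and 2.67, 2.31, 1.41 and 0.455 CPM at P0. Its E12.5 litters agreed closely, whereas the P0 litters spread from 17 counts to 3. The means were 5.21 ± 0.512 and 1.71 ± 0.991 CPM and the log2 fold change was -1.60 ± 0.54 (edgeR adjusted p = 0.0488). The call was marginal, since it was lost in all 8 fits that left out 1 litter (adjusted p from 0.0512 to 0.104) and with no filter (0.0894), while the fold change ranged over the left-out fits from -1.88 to -1.32. Of its 2543 exonic bases, 445 overlap Aph1a on the other strand.

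Car4, at chr11:84957786-84966044 on the plus strand, gave 0, 0, 3 and 0 counts at E12.5 and 1, 6, 0 and 0 at P0. Only NPD27 exceeded 3 counts. No difference was detectable at this depth (exact two-sided permutation test on CPM, p = 0.714), although 6 endothelial markers summed to 74.5 to 154 CPM at E12.5 and 24.3 to 123 at P0.

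The RefSeq promoter table (GRCm38.p6) covered 5 members, Car4, Car9, Car11, Car12 and Car14. The 3 transmembrane genes are shown because they moved in opposite directions. The upstream sequence of 250 bases was searched on both strands for the HIF core, ACGTG or GCGTG, and a match is set in capitals (CACGT is ACGTG on the other strand). The match in Car9 starts 18 bases before the RefSeq start site, inside the first exon of the Gencode M21 transcript, which begins further upstream, so the 190 bases before that exon and the last 30 bases before the RefSeq start are given on separate lines. The windows are chr4:43506776-43506965 and chr4:43506996-43507025 (plus strand) for Car9, chr3:95904686-95904935 (minus strand) for Car14, whose last 6 bases lie in the Gencode M21 exon, and chr9:66713436-66713685 (plus strand) for Car12.
Car9, upstream of the exon: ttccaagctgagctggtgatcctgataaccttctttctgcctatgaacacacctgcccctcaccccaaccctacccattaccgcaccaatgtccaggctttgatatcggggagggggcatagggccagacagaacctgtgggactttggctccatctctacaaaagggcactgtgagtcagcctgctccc
Car9, around the match: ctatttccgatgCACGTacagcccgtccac
Car14: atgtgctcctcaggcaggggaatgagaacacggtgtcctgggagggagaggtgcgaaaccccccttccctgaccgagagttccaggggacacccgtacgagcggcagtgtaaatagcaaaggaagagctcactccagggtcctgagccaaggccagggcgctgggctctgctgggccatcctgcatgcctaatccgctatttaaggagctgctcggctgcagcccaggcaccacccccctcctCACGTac
Car12: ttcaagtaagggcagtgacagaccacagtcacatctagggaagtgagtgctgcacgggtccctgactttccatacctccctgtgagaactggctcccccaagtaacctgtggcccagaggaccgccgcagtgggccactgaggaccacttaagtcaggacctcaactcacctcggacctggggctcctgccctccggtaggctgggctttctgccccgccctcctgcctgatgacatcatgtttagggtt

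Car14, which fell, and Car9, which rose, each held 1 match, 7 bases before the start site in Car14, and Car12 held 0. Such a core occurs in 38.6% of the 32851 promoters in the table. The match did not separate these genes by direction, and binding was not measured.

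Car8 and Car11 encode carbonic anhydrase-related proteins. Car8, whose product binds the inositol trisphosphate receptor and is best known from Purkinje cells, is at chr4:8143362-8239041 on the minus strand. It had 0, 2, 7 and 0 counts at E12.5 (0, 0.390, 0.846 and 0 CPM) and 97, 53, 26 and 28 counts at P0 (15.3, 7.64, 3.06 and 4.24 CPM). Only NPD4 exceeded the floor of 3 counts at E12.5, and every P0 litter was above it. Means were 0.309 ± 0.403 and 7.55 ± 5.49 CPM with a log2 fold change of 4.28 ± 0.88 (edgeR adjusted p = 0.00466), which ran from 3.71 without NPD26 to 5.50 without NPD4.

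Car8 is also known from neurons. Of 8 neuronal markers, 0 rose and 0 fell by the test, but without NPD4 5 of the 8 rose. Their sum was 270, 290, 3188 and 290 CPM at E12.5 and 1240, 750, 525 and 1092 CPM at P0, so that every E12.5 litter other than NPD4 lay below every P0 litter. At P0 both this sum and Car8 were highest in NPD26 and lowest in NPD28. NPD4, with the highest neuronal sum of all litters, had 0.846 CPM of Car8, below each P0 litter. The osteoclast markers rose as well (3 of 3 tested). At P0 their sum was highest in NPD28 (1216 CPM), where Car8 was lowest, and Mmp9 alone made up 1059 CPM of that sum. Acp5 (169, 159, 68.7 and 19.6 CPM) and Ctsk (196, 120, 76.3 and 103 CPM) were highest in NPD26, as Car8 was. Ctsk was lowest in NPD28, as Car8 was, and Acp5 was lowest in NPD30. The part of either cell type in the Car8 result was not tested.

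Car11 encodes a secreted related protein and is at chr7:45699843-45704682 on the plus strand. Its litters interleaved, with 7.08, 11.1, 15.6 and 11.8 CPM at E12.5 and 15.6, 5.19, 8.12 and 17.6 CPM at P0. Means were 11.4 ± 3.49 and 11.6 ± 5.91 CPM. The log2 fold change was 0.02 ± 0.42 (edgeR adjusted p = 0.978), and 2 SE on either side of it span -0.83 to 0.87.

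To compare members with each other, CPM were divided by the exonic length in kb. At E12.5 the order of mean level per kb was Car3 (548), Car2 (31.6), Car11 (5.92), Car14 (2.05), Car13 (1.45), Car9 (1.13), Car1 (0.712), Car12 (0.596), Car8 (0.0802) and Car4 (0.0461). The ranges over litters of Car3, Car2, Car11 and Car14 were apart from each other, and from Car14 downward neighbours overlapped. At P0 the order was Car3 (4291), Car2 (77.9), Car1 (50.6), Car13 (7.01), Car9 (6.83), Car11 (6.03), Car8 (1.96), Car14 (0.673), Car4 (0.130) and Car12 (0.123). Here Car3 was apart from Car2 and Car1 from Car13, and all other neighbours overlapped. Car1 moved from the seventh place to the third and Car12 from the eighth to the last.

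Summed per kb over the 10 members, the family measured 858, 890, 278 and 338 at E12.5 and 3322, 2331, 3208 and 8907 at P0, of which Car3 made up 83.0% to 95.9% and 93.6% to 97.5%. Without Car3 the make-up of the rest shifted. Car1 supplied 3.26%, 2.02%, 2.18% and 0% of the other 9 members' sum at E12.5 and 30.9%, 31.5%, 30.3% and 37.9% at P0, while Car2 went from between 64.7% and 81.6% to between 42.7% and 56.9%. The membrane-bound members together measured 3.82 ± 1.36 per kb at E12.5 and 7.75 ± 1.81 at P0, a sum that was not tested. Their lowest P0 litter (5.50) was below the highest E12.5 litter (5.85).

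**Figure D4:**
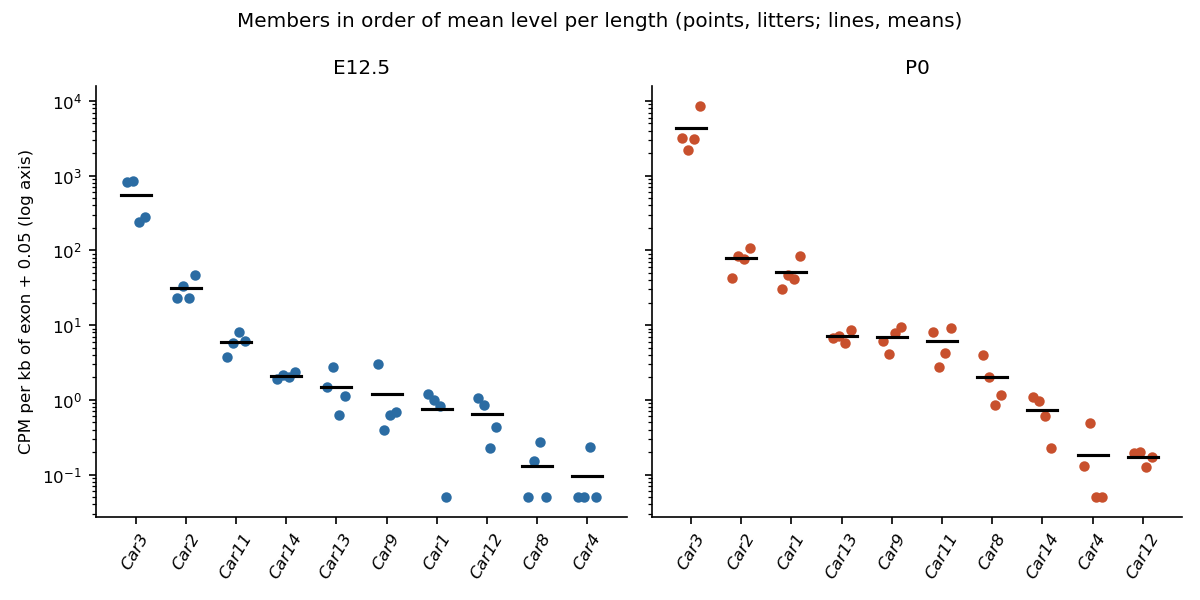
Members in order of mean level at each stage, with the level in CPM per kb of exon plus 0.05 on a log axis (points, litters; lines, means). Car3 leads at both stages with means of 548 and 4291, and Car1 lies in the seventh place at E12.5 and the third at P0.

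The 6 carbonic anhydrase genes outside the members were low and showed no call. The mitochondrial form Car5b had 3.93 to 7.22 CPM at E12.5 and 2.02 to 9.70 at P0 (log2 fold change 0.18 ± 0.50), and Car10, a related protein of the nervous system, 1.23 to 8.34 and 1.88 to 7.21 CPM (0.22 ± 0.64). Their edgeR adjusted p-values were 0.828 and 0.837. The genes Car5a, Car6, Car7 and Car15 had at most 5 counts in any litter and were not tested.

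Genes that work with carbonic anhydrases were described from lists of bicarbonate transporters, proton and lactate transporters, and HIF targets. Of 14 bicarbonate transporters 10 could be tested, 2 fell (20%, beside 12.0% of all genes tested) and 0 rose, with a median log2 fold change of -0.09. Slc4a8 (log2 fold change -1.07 ± 0.27, edgeR adjusted p = 0.0140) and Slc4a7 (-0.95 ± 0.24, adjusted p = 0.0124), both sodium-coupled bicarbonate transporters, were the genes that fell. The number called in this list was 4 without NPD3, 5 without NPD4 and 4 without NPD30. Slc4a1, the anion exchanger of red blood cells, had 121 to 528 CPM at E12.5 and 36.5 to 118 at P0 (adjusted p = 0.0511).

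Of 15 proton and lactate transporters 11 could be tested, 3 rose (27.3%, beside 16.0%) and 0 fell, with a median log2 fold change of 1.05. Slc9a9, an endosomal sodium-proton exchanger, rose by 3.06 ± 0.80 on the log2 scale (edgeR adjusted p = 0.0174). It missed the threshold without NPD3, NPD9.2 or NPD27 (adjusted p from 0.0518 to 0.0545) and with no filter (0.0963). Hvcn1, the voltage-gated proton channel of leukocytes, rose by 2.78 ± 0.76 (edgeR adjusted p = 0.0207), a call lost without NDP10.2, NPD3, NPD4 or NPD26 (0.0532 to 0.065), with no filter (0.0838) and by limma-voom (0.162). All 7 neutrophil markers that could be tested rose, from a sum of 4.01 to 15.8 CPM to one of 764 to 6678. In the P0 litters this sum was 764, 802, 6678 and 973 CPM, and Hvcn1 was 45.9, 37.5, 30.4 and 2.43 CPM. The part of neutrophils in the Hvcn1 result was not tested. The lactate exporter Slc16a3 and the carrier chaperone Bsg did not pass, at 0.22 ± 0.48 and -0.07 ± 0.29.

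Of 18 HIF targets other than Car9 and Car12, 17 could be tested, 3 rose (17.6%, beside 16.0% of all genes tested) and 0 fell, with a median log2 fold change of 0.19. The ones that rose were Ndrg1 (1.87 ± 0.37, edgeR adjusted p = 0.00372), Egln3, an oxygen-sensing hydroxylase (1.27 ± 0.37, 0.0251), and Pfkfb3, a regulator of glycolysis (0.97 ± 0.22, 0.00749). Egln3 missed the threshold without any 1 of the E12.5 litters and without NPD30 (adjusted p from 0.0542 to 0.0786). The glucose transporter gene Slc2a1 and Vegfa had log2 fold changes of -0.45 ± 0.44 and -0.59 ± 0.38 and did not pass.

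**Figure D5:**
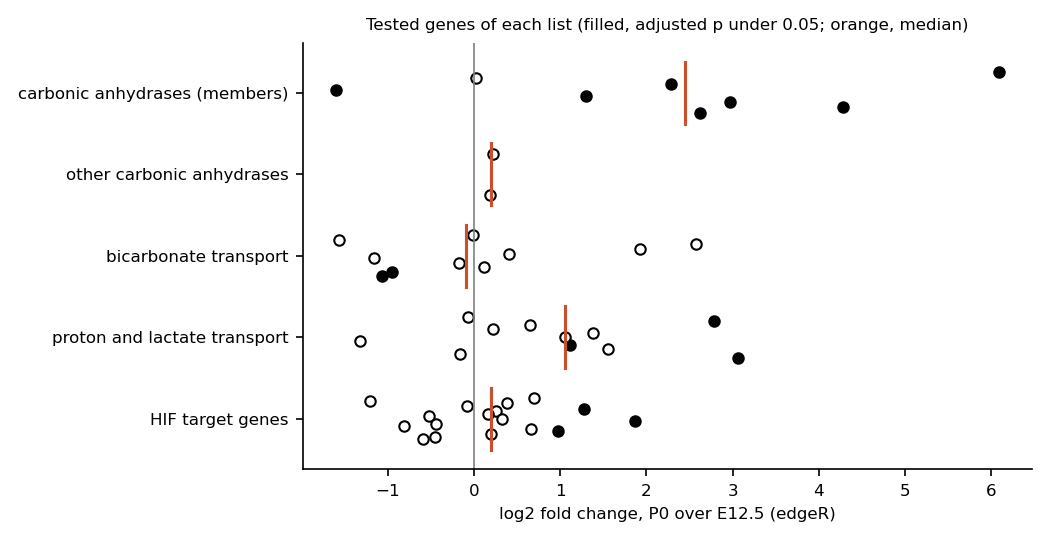
Log2 fold change (P0 over E12.5, horizontal axis) of each tested gene in the 5 lists, filled where edgeR's adjusted p was under 0.05, with the median as a line. The members span -1.60 to 6.09 around a median of 2.45, and the medians of the bicarbonate, proton and lactate, and HIF lists are -0.09, 1.05 and 0.19.

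The genes most like each called member were those, among 12688 tested genes with a mean log2 CPM of at least 2, whose 8 centred log2 CPM values differed least from the member's by root mean square. For Car3 these were Calr3, Anxa8 and Rgs9bp (differences of 0.217, 0.222 and 0.240). Those nearest to Car2 were Cpox, an enzyme of heme synthesis, Cxcl12, a chemokine, and Hemgn, a gene of blood cell precursors (0.215, 0.260 and 0.279). Tnxb, Acpp and Trarg1 came nearest to Car1, at larger differences of 0.677, 0.780 and 0.820. The remaining called members had as nearest genes Grm7, Cd55 and Rab27b for Car13 (0.295, 0.302 and 0.324), Eno2 and Ahnak2 for Car9 (0.465 and 0.495), Stac, Ctsk and Ano3 for Car8 (0.484, 0.605 and 0.662), and Bmp4, Dnah1 and Ntng1 for Car14 (0.271, 0.342 and 0.346).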

How the data were processed

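RNA-Seq libraries of 4 litters per stage were analysed. The authors aligned reads to GRCm38 with STAR (version 2.4.0j in the submitters' processing notes), used htseq-count with the Gencode M4 annotation, and deposited the resulting raw counts, which were not normalized. The strand setting is not given in the sources used here. Tallies that name no gene, 65.2% to 77.4% of all reads tallied, were left out. A later annotation on the same build, Gencode M21, gave positions and exonic lengths.

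Genes were filtered with filterByExpr (minimum count 10, minimum total 15), normalized by TMM and tested with the robust quasi-likelihood F-test of edgeR 4.0.16 in R 4.3.3, with Benjamini-Hochberg adjustment over 15467 genes. The standard error is the log2 fold change divided by the square root of F. CPM use TMM library sizes, and log2 CPM add a prior count of 2. Exact permutation tests used scipy. The edgeR p-values set the stage difference against the spread between litters. The permutation p-values give the share of relabellings of the litters with a difference at least as large. The fit was tested on simulated counts, drawn with dispersions from the trend over genes. There edgeR recovered 48.2% of known changes of 1.5 on the log2 scale and 93% of changes of 3. Of its calls 2.63% were unchanged genes. The simulation changed 85 genes by 1.5 and 115 by 3, whereas 4321 genes were called in the data. Each change was centred on the gene's mean level. These shares therefore need not hold for members with few counts at 1 stage.

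Alternatives were DESeq2 1.42.0 (Wald test, and its size factors), limma 3.58.1 (voom), no filter, no hemoglobin or mitochondrial genes, estimates that were not robust, and each litter left out. Leaving out NDP10.2 and NPD9.2 together was chosen after the data were seen. The members and lists were chosen with earlier results of these data known. Named are all carbonic anhydrase genes, each list's 4 called genes with the largest change and a mean log2 CPM of at least 2, and the 3 genes most like each called member. T, Klf1, Hbb-y, Ckm, Dcstamp and Ctsk are named for the cell types they mark. Slc4a1, Slc16a3, Bsg, Slc2a1, Vegfa, Acp5, Mmp9, Krt19 and Cd24a fall outside these rules and were chosen after their values were seen. Markers of chondrocytes (3 of 7 called) were not used for a member. Of the genes these rules name, 2 are not reported here. No sequence of a protein is given.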

Additional observations from a re-analysis of the deposited data

Results flagged for a closer look

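Of 90 groups of 4 litters examined, 2 for each of 45 named genes, 3 held a litter whose gap to the nearest other litter on the log2 CPM scale exceeded the critical share of the group's range in Dixon's test. Chance alone flags about 1 group in 20, and none of the 3 belongs to a carbonic anhydrase. Hvcn1 was at 2.43 CPM in the P0 litter NPD30 against 30.4 to 45.9 CPM in the other P0 litters. Stac, one of the genes most like Car8, was at 3.38 CPM in the E12.5 litter NPD4 against 0.738 to 0.944 CPM in the others. Rab27b, one of the genes most like Car13, was at 69.9 CPM in NPD30 against 37.0 to 41.0 CPM in the other P0 litters.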

How the results depend on the processing

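Without both NDP10.2 and NPD9.2, an alternative added later, 3 members were called (Car1, Car8 and Car9) in place of 7, and 1 gene in each of the bicarbonate, proton and lactate, and HIF lists. Car2, Car3 and Car13 then had adjusted p-values of 0.0598, 0.0564 and 0.0563, with fewer samples in the fit. Leaving out 1 litter gave 5 to 7 members, 2 to 5 bicarbonate, 2 to 4 proton and lactate and 2 to 4 HIF genes called, and 0 of the other carbonic anhydrases. DESeq2's Wald test called 5 bicarbonate genes in place of 2 and 7 proton and lactate genes in place of 3, and no filter called 6 bicarbonate genes. The cause of these shifts was not tested. The other alternatives called 7 or 8 members. Without the 2 litters Car11 was at -0.24 and Car10 at -0.22. The log2 fold change of Car11 was -0.18 by limma-voom, -0.01 without hemoglobin and mitochondrial genes, and -0.29 to 0.27 with 1 litter left out, where Car5b ran from -0.13 to 0.49 and Car10 from -0.09 to 0.99. No paired analysis was possible because the litters of the stages share no number. Depth limits Car4 and Car12 at both stages, Car1, Car8 and Car9 at E12.5, and Car14 at P0, which rest on few counts.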
